A study of Mus musculus with 40 samples.

Results

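The genes described here are 10 members of the interleukin-1 family and its receptors, measured in the mammary gland of mice without ovaries. They were chosen by gene symbol and comprise ligands (Il1a, Il1b, Il33, Il18), secreted antagonists (Il1rn, Il18bp) and receptor chains (Il1r1, Il1rl1, Il1rap, Il1r2). All 10 were present among the 47729 gene symbols of the count and RPKM tables. RNA was sequenced from the number 4 inguinal gland of Balb/cJ mice, with the lymph node cut away. The ovaries had been removed at 21 days of age, in control mice too, and treatment began after 7 days of recovery.

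The groups were mice given 200 nM estrogen in drinking water with the control diet for 60 h, and mice on that diet alone (AIN 93G based) for 60 h. The same pair was sampled at 84 h. Mice fed the diet with conjugated linoleic acid (CLA, a group of isomers of linoleic acid, 2.7% fat) were sampled at 108 h and at 132 h, each beside controls of the same time. Each of the 8 groups held 5 mice, 1 library a mouse. The animal numbers of all 10 estrogen mice fall in a single run without controls, so estrogen and run cannot be told apart, whereas CLA mice and their controls shared runs. The study's title sets the comparison in mammary growth that dietary CLA brings about without estrogen.

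The interleukin-1 family consists of cytokines made mostly by macrophages, epithelia and stromal cells, which signal through paired receptor chains to the kinases of the MyD88 pathway and to NF-kappaB. Interleukin-1 alpha and beta share the receptor Il1r1 with its accessory chain Il1rap. The antagonist Il1rn occupies the same receptor without starting a signal, and Il1r2 is a decoy receptor with no signalling domain. Interleukin-33, stored in nuclei of stromal and endothelial cells, uses the ST2 chain encoded by Il1rl1, which is known on mast cells, group 2 innate lymphoid cells and regulatory T cells. Interleukin-18 and interleukin-1 beta are made as precursors that caspase-1 cuts in inflammasomes, and Il18bp binds mature interleukin-18 outside cells. In adipose tissue, which fills most of this gland, macrophages that take up lipid are a known source of Il1rn.

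The upstream sequences below are shown because Il1rn was the member that differed by the widest margin under CLA while Il1b was not called. Windows of Il1r1 and Il33, both higher under CLA at 132 h, stand beside them. Il1r1 and Il33 have 2 windows each, and the one printed is the one with a motif match. Il1rl1, also higher under CLA at 132 h, had no match in its windows and is not printed. The letters are RefSeq sequence of build GRCm38.p6, from 250 bases before a transcript start to the start, 5′ to 3′ on the gene's strand. Capitals mark a motif match. The windows are chr2:24336610-24336859 (plus strand, Il1rn first start), chr2:24345041-24345290 (plus, Il1rn second start), chr2:129371140-129371389 (minus, Il1b), chr1:40266336-40266585 (plus, Il1r1 second start) and chr19:29924863-29925112 (plus, Il33 first start).
Il1rn first start: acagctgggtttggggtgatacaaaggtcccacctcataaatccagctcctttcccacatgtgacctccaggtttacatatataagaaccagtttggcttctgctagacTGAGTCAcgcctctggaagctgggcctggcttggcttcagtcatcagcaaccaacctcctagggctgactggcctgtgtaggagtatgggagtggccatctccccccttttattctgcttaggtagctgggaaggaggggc
Il1rn second start: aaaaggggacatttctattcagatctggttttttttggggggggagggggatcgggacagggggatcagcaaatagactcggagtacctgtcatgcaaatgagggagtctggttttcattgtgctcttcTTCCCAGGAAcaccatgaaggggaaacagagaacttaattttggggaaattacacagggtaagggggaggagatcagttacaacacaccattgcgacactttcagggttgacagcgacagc
Il1b: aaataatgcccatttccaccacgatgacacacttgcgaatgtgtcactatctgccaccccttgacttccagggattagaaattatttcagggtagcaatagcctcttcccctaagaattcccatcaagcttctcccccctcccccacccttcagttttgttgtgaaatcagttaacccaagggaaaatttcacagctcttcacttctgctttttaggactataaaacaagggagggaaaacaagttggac
Il1r1 second start: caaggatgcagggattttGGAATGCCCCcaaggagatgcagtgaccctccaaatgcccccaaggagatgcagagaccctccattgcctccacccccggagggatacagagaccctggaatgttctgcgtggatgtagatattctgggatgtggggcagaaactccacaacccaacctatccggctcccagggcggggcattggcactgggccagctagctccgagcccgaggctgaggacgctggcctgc
Il33 first start: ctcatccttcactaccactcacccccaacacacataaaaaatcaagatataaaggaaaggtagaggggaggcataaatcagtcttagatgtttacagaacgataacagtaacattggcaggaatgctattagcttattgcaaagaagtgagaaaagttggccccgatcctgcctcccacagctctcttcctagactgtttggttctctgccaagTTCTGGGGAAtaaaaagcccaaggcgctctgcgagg

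RefSeq windows were matched for all 10 members, 15 windows in all, and 4 motifs were searched on both strands. These were an AP-1 element (TGANTCA), a STAT element (TTC and GAA with any 4 bases between), the core GAGGAA of PU.1 sites and the kappaB consensus. Within a window no matches overlapped each other. The AP-1 element was present in 2 of the 15 windows, the first of Il1rn, 141 bases before the start, and that of Il1a; it was present in 6.75% of 32851 windows over all genes. A STAT element was in 4 windows, which hold 3 distinct sites, and in 5.85% of all windows. It lay 121 bases before the second start of Il1rn, in bases that another, overlapping window of that gene also covers, and in windows of Il33 and Il18. The kappaB consensus was in 1 window, the second of Il1r1, against 7.25% of all windows. The PU.1 core was in 1 window, that of Il1a, against 23.3%. None of these letters were in the windows of Il1b or Il1rl1. A match describes the letters only.

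The members lay in several places of the genome (GRCm38, GENCODE M21 annotation). Il1r2 (chr1:40074079-40125231), Il1r1 (chr1:40225080-40317257) and Il1rl1 (chr1:40429570-40465415) formed a run of receptor genes on the plus strand of chromosome 1. Il1rn (chr2:24336853-24351494) was on the plus strand of chromosome 2, far from Il1b (chr2:129364570-129371139) and Il1a (chr2:129299610-129309972), which neighbour each other on the minus strand. The others were Il1rap (chr16:26581704-26730117), Il33 (chr19:29925114-29960718), Il18 (chr9:50554827-50581840) and, on the minus strand, Il18bp (chr7:102014885-102018690). Exons of Il1a, Il1b, Il1rap and Il18bp overlap exons of a gene on the other strand, and whether the counting used strand is not given in the sources used here.

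Total counts per library ranged from 18183713 to 40026800. Adipocyte markers summed to between 8679 and 21496 CPM over 6 genes in every library, and the estrogen-responsive genes Pgr, Areg and Greb1 were all called higher under estrogen at both times. A skin signal stood apart in 9 libraries, whose mean log2 CPM over skin and hair genes was 1.63 to 5.96, against -2.51 to 1.12 in the other 31. These were 1 estrogen library at 60 h, 3 estrogen libraries at 84 h, 2 control libraries at 108 h and 3 control libraries at 132 h, with 0 of the 10 CLA libraries. Member calls against controls that changed without these libraries are given both ways. Of the cell marker lists, only those of macrophages and mast cells were tested again without them. Other values use all libraries unless stated otherwise. Leaving out the high-skin libraries kept 2 estrogen libraries at 84 h and 2 control libraries at 132 h. Calls over all genes then came to 303, against 931, under estrogen at 84 h. Under CLA at 132 h they came to 7325, against 9613. A call lost there cannot be told apart from an effect of fewer mice.

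In control glands the receptor Il1r1 had the highest mean level per gene length at 60, 84 and 132 h, Il33 had it at 108 h (7.00 ± 1.60 RPKM, against 5.53 ± 0.525 for Il1r1, SD, n = 5), and Il1a had the lowest at each time. Over the 20 control libraries of the 4 times, RPKM averaged 5.22 ± 0.786 (SD) for Il1r1, 4.85 ± 1.90 for Il33, 4.06 ± 0.777 for Il18 and 3.14 ± 0.679 for Il18bp. The middle of the order was Il1r2 at 2.08 ± 0.550 and Il1rl1 at 1.36 ± 0.533 RPKM. Il1rn at 0.793 ± 0.572, Il1rap at 0.684 ± 0.134, Il1b at 0.496 ± 0.422 and Il1a at 0.110 ± 0.116 RPKM closed it. The ranges of every neighbouring pair in this order overlapped. In CLA glands the order differed at its head, with Il1rn at 24.3 ± 7.73 RPKM at 108 h and 33.4 ± 12.3 RPKM at 132 h (n = 5 each), above every other member.

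**Figure D1:**
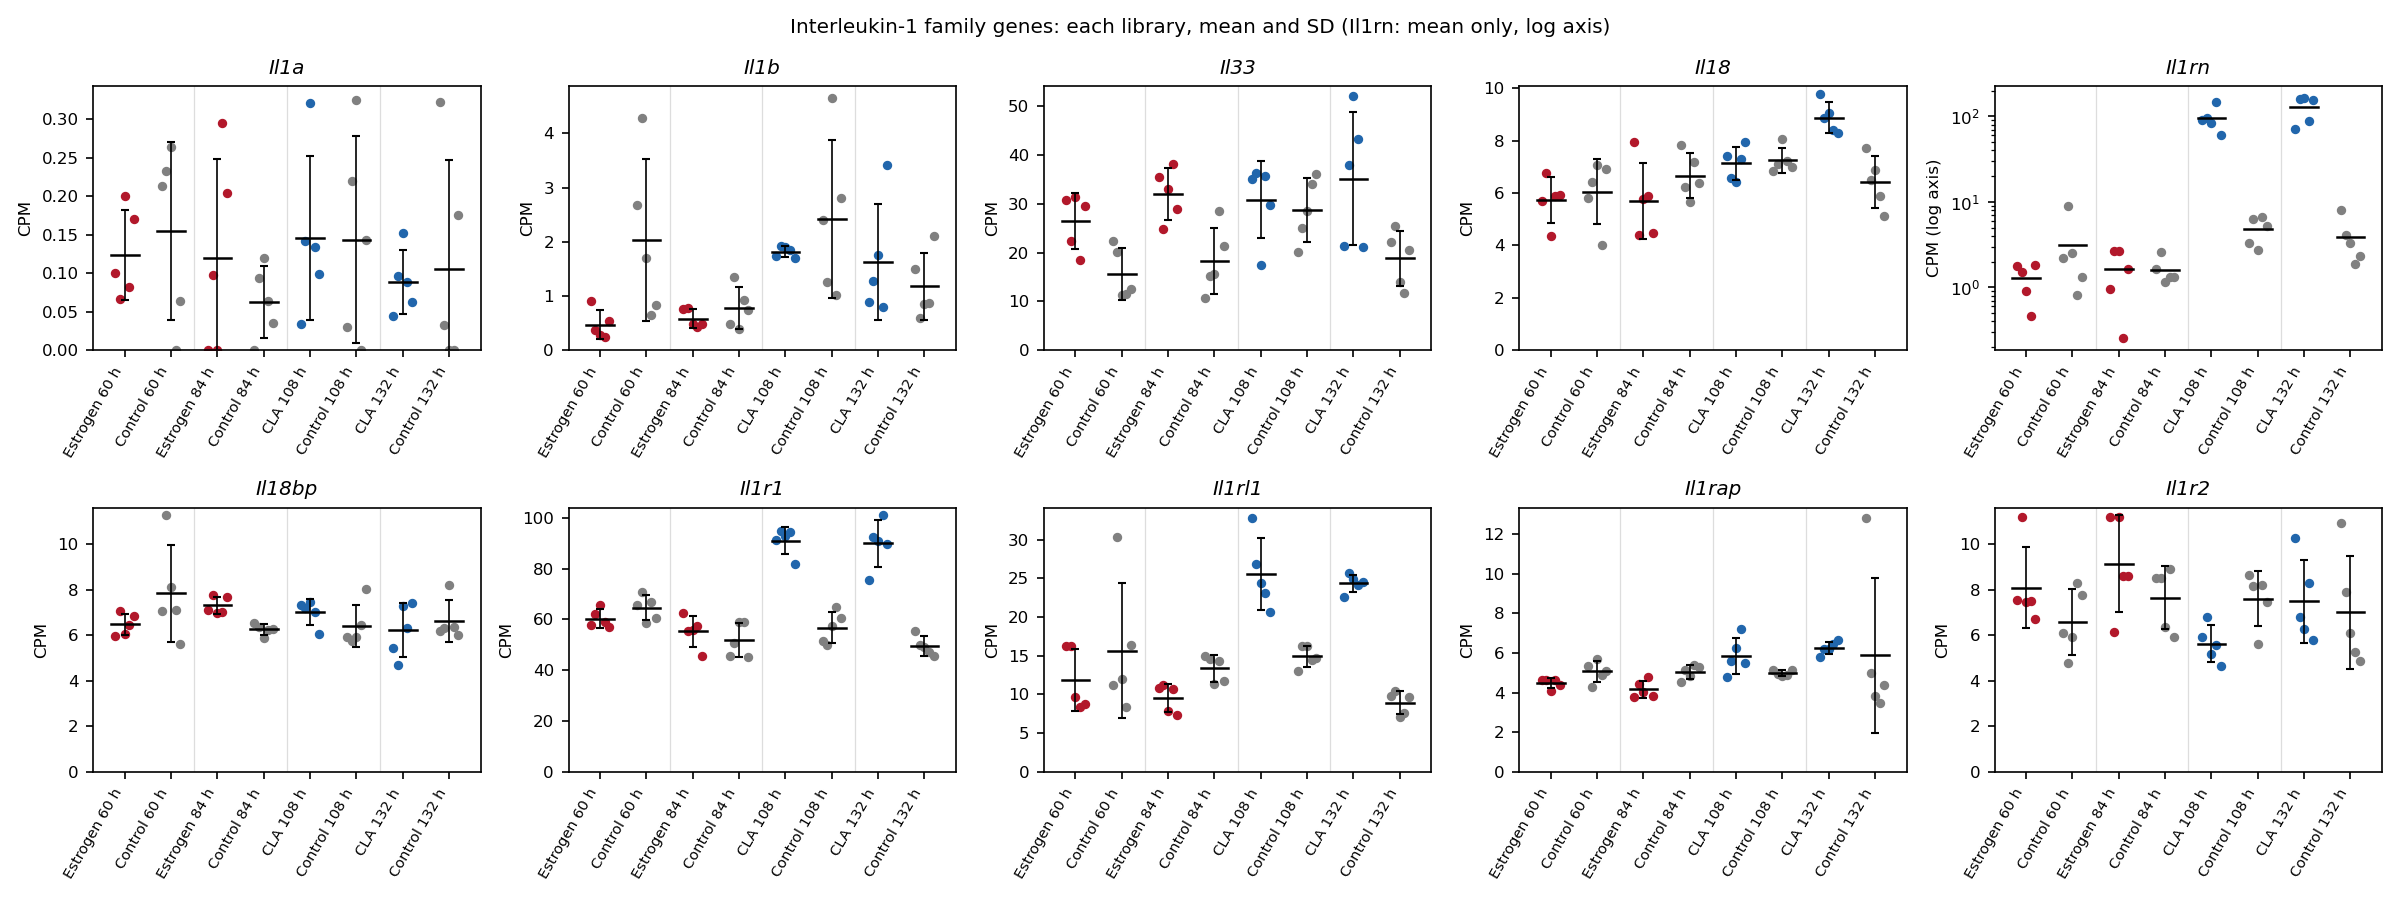
CPM (counts scaled to library size) of each of the 10 genes in every library, by group, with the mean and SD of the 5 libraries (bars); Il1rn is on a log axis with the mean alone. All 10 CLA libraries lie above all control libraries of their time for Il1rn, Il1r1 and Il1rl1, and Il1a stays at or under 0.325 CPM.

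CLA glands carried many times more Il1rn message at both times, and more message for the receptors Il1r1 and Il1rl1. At 108 h, 4 of the 9 members tested passed an adjusted p of 0.05 (edgeR quasi-likelihood test, Benjamini-Hochberg over all genes), 3 higher and 1 lower, against 47.9% of all genes tested (24.9% higher, 23.0% lower). At 132 h, 5 of 9 passed, all higher, against 56.0% of genes (27.0% higher, 29.0% lower). The share of members called was therefore near that of all genes. Because these are whole glands, a change in the number of cells of a type and a change in RNA per cell cannot be told apart in any of these values.

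Il1rn, the receptor antagonist, had 91.1, 94.7, 83.0, 146 and 61.2 CPM in the CLA glands at 108 h, against 3.26, 6.36, 2.77, 6.70 and 5.18 CPM in controls. At 132 h it had 70.3, 162, 164, 88.0 and 157 CPM in CLA glands and 8.09, 4.07, 3.26, 1.87 and 2.33 CPM in controls. The lowest CLA gland stood far above the highest control gland of its time at both times. On the log2 scale the fold change was 4.29 ± 0.49 (SE) at 108 h (adjusted p = 1.94e-06, edgeR) and 4.97 ± 0.45 at 132 h (adjusted p = 5.54e-08), with 5 of 5 libraries above all controls. The ratio of mean CPM was 19.6 at 108 h and 32.6 at 132 h. Without the high-skin libraries the log2 fold change was 4.28 at 108 h and 5.89 at 132 h. Within runs of animal numbers the difference in mean log2 CPM was 4.27 and 4.35 at 108 h and 4.41, 5.11 and 6.03 at 132 h.

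Il1r1, the signalling receptor for interleukin-1, had 91.1, 94.6, 92.9, 94.3 and 81.8 CPM in CLA glands at 108 h, against 51.6, 49.8, 57.3, 65.0 and 60.4 CPM in controls. At 132 h the values were 75.7, 92.4, 90.7, 101 and 89.9 CPM in CLA glands and 55.6, 49.9, 49.3, 47.2 and 45.4 CPM in controls. No library of either pair of groups overlapped, and the controls had an SD of 6.27 CPM at 108 h and 3.84 CPM at 132 h. Its log2 fold change was 0.68 ± 0.07 at 108 h (adjusted p = 2.11e-07, edgeR) and 0.84 ± 0.09 at 132 h (adjusted p = 4.20e-07). The within-run differences were 0.87 and 0.53 at 108 h and 0.71, 1.07 and 0.98 at 132 h.

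Il1rl1, the ST2 receptor chain for interleukin-33, had 32.9, 26.9, 24.5, 23.1 and 20.6 CPM in CLA glands at 108 h and 13, 16.2, 16.2, 14.5 and 14.8 CPM in controls. At 132 h it had 22.6, 25.7, 24.9, 24.2 and 24.5 CPM in CLA glands, against 9.82, 10.5, 7.14, 7.54 and 9.69 CPM in controls. The groups did not overlap at either time. The log2 fold change was 0.78 ± 0.28 at 108 h (adjusted p = 0.0261, edgeR) and 1.42 ± 0.13 at 132 h (adjusted p = 2.58e-08). The call at 108 h was lost with no filter on low counts (0.78, adjusted p = 0.0501), without the high-skin libraries (0.76, adjusted p = 0.0883), without CLA replicate 1 (0.68, adjusted p = 0.0680) and without control replicate 1 (0.73, adjusted p = 0.0574). Within runs the differences were 0.94 and 0.53 at 108 h and 1.26, 1.71 and 1.33 at 132 h. Gene counts do not separate the membrane form of ST2 from its soluble form, which acts as a decoy.

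Groups that did not overlap were found for 3 of the 9 tested members at 108 h, against 31.8% of genes tested, and for 4 of 9 at 132 h, against 36.9%. The fourth at 132 h was Il18, the interleukin-18 precursor. It had 9.80, 8.86, 9.05, 8.40 and 8.31 CPM in CLA glands and 7.73, 6.48, 6.87, 5.90 and 5.11 CPM in controls at 132 h. Its log2 fold change there was 0.44 ± 0.15 (adjusted p = 0.0158, edgeR), and the within-run differences were 0.38, 0.40 and 0.69. At 108 h Il18 averaged 7.13 ± 0.629 CPM in CLA glands and 7.25 ± 0.481 CPM in controls (SD, n = 5 each), with a log2 fold change of -0.02 ± 0.13 (adjusted p = 0.917). Its soluble inhibitor Il18bp was called at neither time, at 0.14 ± 0.14 (adjusted p = 0.454) and -0.12 ± 0.12 (adjusted p = 0.412).

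Il33, the alarmin ligand of ST2, was higher at 132 h and varied widely among mice. It had 21.3, 37.9, 52.1, 43.2 and 21.2 CPM in CLA glands at 132 h, against 22.1, 25.5, 14.0, 11.8 and 20.6 CPM in controls. Of the CLA glands, 3 stood above every control and the other 2 lay within the control range. Its log2 fold change was 0.87 ± 0.28 (adjusted p = 0.0143, edgeR), and 1.08 (adjusted p = 0.0644) without the high-skin libraries. Without CLA replicate 3 it was 0.69 (adjusted p = 0.0511), and within runs it was 0.55, 1.74 and 0.04. At 108 h it averaged 30.9 ± 7.92 CPM in CLA glands and 28.8 ± 6.54 CPM in controls (SD, n = 5 each), a log2 fold change of 0.11 ± 0.23 (adjusted p = 0.739).

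Il1r2, the decoy receptor, was the member called lower under CLA, at 108 h. It had 5.92, 6.79, 5.19, 5.55 and 4.63 CPM in CLA glands and 8.62, 8.15, 5.60, 8.20 and 7.48 CPM in controls. The ranges overlapped, with 3 CLA glands below every control. Its log2 fold change was -0.44 ± 0.17 (adjusted p = 0.0371, edgeR). The call was lost without the high-skin libraries (-0.33, adjusted p = 0.183), in the RPKM table (-0.32, adjusted p = 0.0996, limma with a pseudocount of 0.1) and without any of 7 single libraries. Those were CLA replicates 1, 3, 4 and 5 and control replicates 1, 2 and 4, with adjusted p of 0.0507 to 0.0886. At 132 h its log2 fold change was 0.07 ± 0.22 (adjusted p = 0.819).

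Il1rap, the accessory chain that Il1r1 and ST2 share, had 5.78, 6.21, 6.20, 6.43 and 6.63 CPM in CLA glands at 132 h, against 12.8, 4.98, 3.80, 3.45 and 4.41 CPM in controls. Control replicate 1 alone lay above the CLA glands, and it is among the 3 high-skin controls of that time. With all libraries the log2 fold change was 0.05 ± 0.25 (adjusted p = 0.870, edgeR), but 0.56 (adjusted p = 0.000425) without that replicate and 0.64 (adjusted p = 0.00320) without the high-skin libraries. In the RPKM table it was 0.54 (adjusted p = 0.00779, limma with a pseudocount of 0.1). At 108 h it was 0.24 ± 0.10 (adjusted p = 0.0646, edgeR), and -0.01 (adjusted p = 0.974) in the RPKM table.

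The agonist ligands of Il1r1 were scarce. Il1a had 0 to 12 counts in every library and passed no filter on low counts, so it was not tested. Il1b had 9 to 143 counts. At 108 h it had 1.73, 1.92, 1.90, 1.85 and 1.71 CPM in CLA glands and 2.40, 1.25, 4.65, 1.02 and 2.80 CPM in controls. The CLA glands lay close together, inside the wide range of the controls. The log2 fold change was -0.40 ± 0.46 at 108 h (adjusted p = 0.495, edgeR) and 0.44 ± 0.41 at 132 h (adjusted p = 0.379). At 132 h Il1b averaged 1.63 ± 1.07 CPM in CLA glands and 1.18 ± 0.618 CPM in controls (SD, n = 5 each).

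**Figure D2:**
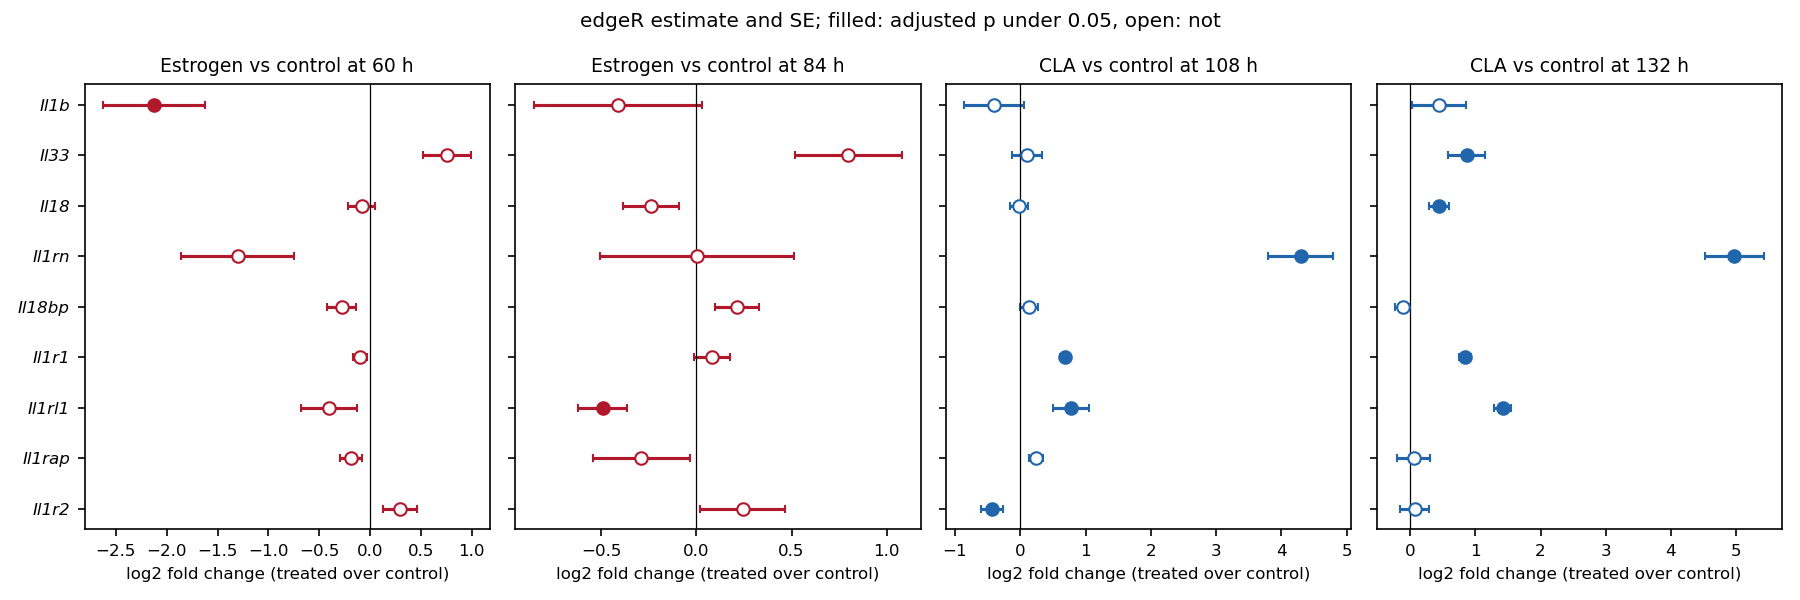
Log2 fold change of the 9 tested members (rows) in each of the 4 treatment comparisons (panels), treated over control, as the edgeR estimate with its SE; filled points passed an adjusted p of 0.05, and each panel has its own scale. Under CLA, Il1rn lies at 4.29 and 4.97 while the other 8 members stay between -0.44 and 1.42.

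The balance of antagonist to agonist message was set out as the ratio of Il1rn to Il1b RPKM within each library. Gene values do not separate transcripts from the different starts of Il1rn. In CLA glands at 108 h the ratio was 41.8, 37.4, 30.0, 60.2 and 25.3, against 0.879, 3.85, 0.406, 5.60 and 1.36 in controls. At 132 h it was 50.2, 96.9, 61.4, 77.6 and 36.4 in CLA glands and 4.05, 5.32, 3.06, 2.02 and 0.866 in controls. No CLA library overlapped a control. Under estrogen the ratio spanned 1.36 to 6.57 at 60 h, against 0.629 to 1.5 in controls. At 84 h it spanned 0.765 to 4.11, against 1.19 to 2.72 in controls. Without the high-skin libraries the median under estrogen at 84 h was 0.994, against 2.67 with them and 1.90 in controls. That of controls at 132 h was 1.44 without them, against 3.06 with them. The decoy to signalling receptor ratio, Il1r2 over Il1r1, spanned 0.178 to 0.274 in CLA glands at 108 h, against 0.346 to 0.577 in controls. At 132 h it spanned 0.221 to 0.469 in CLA glands and 0.356 to 0.646 in controls, which overlapped.

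**Figure D3:**
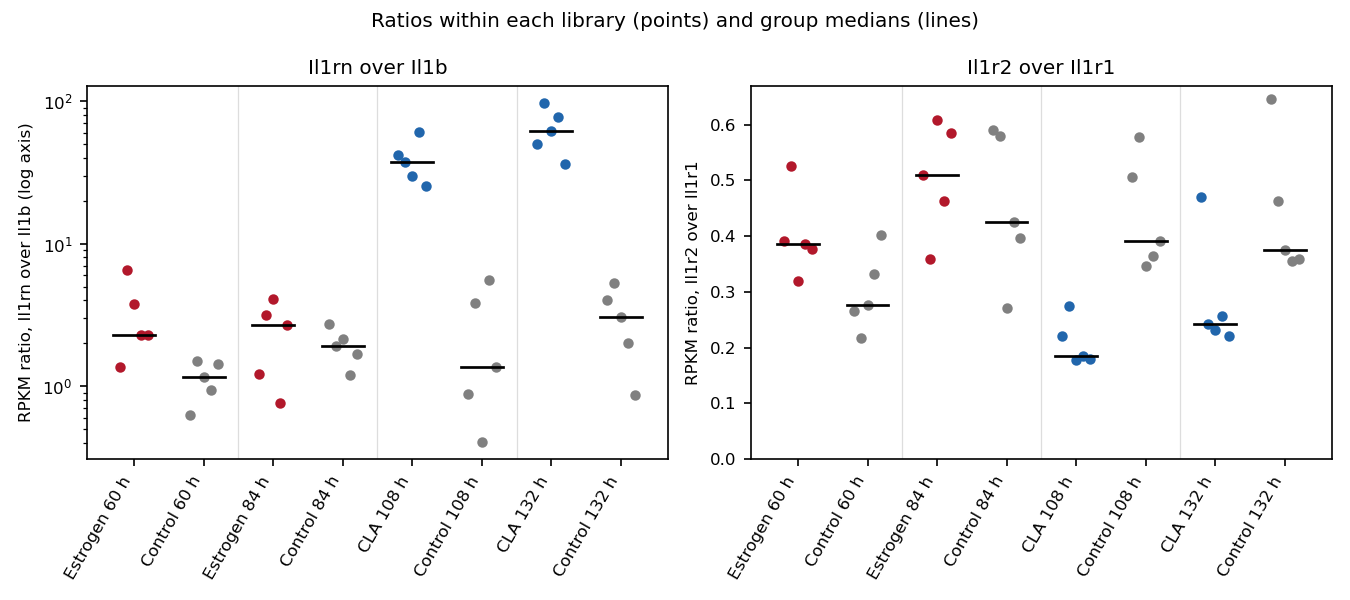
Ratios of RPKM within each library (points) with the group median (lines), for Il1rn over Il1b on a log axis and Il1r2 over Il1r1 on a linear axis. The Il1rn over Il1b medians are 37.4 in CLA glands and 1.36 in controls at 108 h. At 132 h they are 61.4 in CLA glands and 3.06 in controls (1.44 without the high-skin libraries).

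Estrogen moved few members. At 60 h 1 of the 9 tested members was called, Il1b, lower, against 6.49% of all genes tested (2.42% lower). It had 0.902, 0.369, 0.286, 0.245 and 0.546 CPM in estrogen glands, against 2.68, 4.29, 1.70, 0.652 and 0.839 CPM in controls. Of the estrogen glands 4 lay below every control, and 3 controls were well above the rest. By edgeR the log2 fold change was -2.12 ± 0.50 (adjusted p = 0.0214, quasi-likelihood test), from 9 to 27 counts in estrogen libraries and 19 to 129 counts in control libraries. Without control replicate 2 it was -1.66 (adjusted p = 0.0541), and in the RPKM table -1.52 (adjusted p = 0.0559, limma with a pseudocount of 0.1). At 84 h it averaged 0.583 ± 0.173 CPM in estrogen glands and 0.784 ± 0.384 CPM in controls (SD, n = 5 each), with a log2 fold change of -0.41 ± 0.44 (adjusted p = 0.645, edgeR).

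At 84 h 1 of the 9 tested members was called, Il1rl1, lower, against 5.42% of genes tested (1.97% lower). It had 10.8, 11.2, 7.92, 10.7 and 7.33 CPM in estrogen glands and 15, 14.5, 11.3, 14.3 and 11.8 CPM in controls. All 5 estrogen glands lay below all 5 controls. The log2 fold change was -0.49 ± 0.13 (adjusted p = 0.0288, edgeR). It was -0.32 (adjusted p = 0.267) without the high-skin libraries, a fit that kept 2 estrogen libraries. Leaving out estrogen replicate 3 or 5, or control replicate 1, 2 or 4, gave adjusted p of 0.0605 to 0.101. Mast cell markers were lower in the same glands, with 5 of 8 called (Cpa3, Mcpt4, Tpsb2, Cma1 and Ms4a2, from -0.86 to -1.33 on the log2 scale). They summed to 111 to 155 CPM in estrogen glands and 153 to 221 CPM in controls, and 0 of the 8 were called without the high-skin libraries. Their part in the Il1rl1 value was not tested. At 60 h Il1rl1 had a log2 fold change of -0.40 ± 0.28 (adjusted p = 0.414).

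Il33 was above the control mean in all 5 estrogen glands at each time without passing the test. At 60 h it had 30.7, 22.4, 31.4, 18.5 and 29.6 CPM in estrogen glands, against 22.4, 20.2, 11.4, 11.6 and 12.5 CPM in controls. At 84 h it had 35.5, 24.8, 33.1, 38.1 and 28.9 CPM in estrogen glands and 10.7, 15.3, 15.6, 28.5 and 21.3 CPM in controls. At each time 4 of the 5 estrogen glands lay above every control, and the lowest overlapped the controls. The log2 fold change was 0.76 ± 0.24 at 60 h (adjusted p = 0.0597, edgeR) and 0.80 ± 0.28 at 84 h (adjusted p = 0.107). DESeq2 gave adjusted p of 0.0150 at 60 h and 0.0368 at 84 h. By edgeR the call was made without estrogen replicate 4 (adjusted p = 0.0406) or control replicate 1 (0.0323) at 60 h, and without control replicate 4 (0.0442) at 84 h. Of the 10 single libraries left out in turn, only 2 at 60 h and 1 at 84 h gave a call. The highest adjusted p among these edgeR fits was 0.140 at 60 h and 0.237 at 84 h.

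The remaining members were not called under estrogen at either time. Il1rn had 1.77, 1.51, 0.916, 0.463 and 1.84 CPM in estrogen glands at 60 h, against 2.19, 8.91, 2.53, 0.824 and 1.32 CPM in controls. Control replicate 2 stood apart from the rest. Without it the value at 60 h was -0.45 (adjusted p = 0.611). With all libraries the log2 fold change was -1.30 ± 0.56 (adjusted p = 0.168, edgeR) at 60 h and 0.00 ± 0.51 (adjusted p = 0.999) at 84 h, or -1.31 (adjusted p = 0.392) at 84 h without the high-skin libraries. Il18bp lay above all controls in all 5 estrogen glands at 84 h, at 0.21 ± 0.12 on the log2 scale (adjusted p = 0.307), and at -0.28 ± 0.14 (adjusted p = 0.245) at 60 h. Groups that did not overlap were seen for 0 of the 9 tested members at 60 h (6.44% of genes) and 2 of 9 at 84 h (7.98% of genes), Il1rl1 and Il18bp.

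The responses to CLA and to estrogen were set against each other as the difference of log2 fold changes, each over its own controls. The times differ and the estrogen mice fall in a run without controls, so regimen, time and run cannot be told apart in these differences. For CLA at 108 h minus estrogen at 60 h, 5 of 9 members were called (32.1% of genes tested). These were Il1rn at 5.60 ± 0.73 (adjusted p = 2.59e-05, edgeR), Il1r1 at 0.78 ± 0.10, Il1rl1 at 1.18 ± 0.39, Il1rap at 0.43 ± 0.15 and Il1r2 at -0.73 ± 0.23. Without the high-skin libraries 2 of 9 were called. For CLA at 132 h minus estrogen at 84 h, 4 of 9 were called (38.0% of genes tested), namely Il1rn at 4.97 ± 0.67, Il1rl1 at 1.91 ± 0.18, Il1r1 at 0.76 ± 0.13 and Il18 at 0.68 ± 0.21.

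No member's response was called different between the times of a regimen. For CLA at 132 h minus 108 h, edgeR called 0 of 9 members and 0.00% of 17852 genes. DESeq2 called 0 members and 130 genes. By edgeR 3 members had an unadjusted p under 0.05. The 3 were Il18 at 0.47 ± 0.20 (adjusted p = 0.321), Il1rl1 at 0.65 ± 0.31 (adjusted p = 0.383) and Il33 at 0.78 ± 0.38 (adjusted p = 0.394). For estrogen at 84 h minus 60 h, edgeR called 0 of 9 members and 0.00560% of genes. DESeq2 called 0 members and 18 genes. By edgeR 2 members had an unadjusted p under 0.05. Those were Il1b at 1.70 ± 0.68 (adjusted p = 0.695) and Il18bp at 0.49 ± 0.18 (adjusted p = 0.659).

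Control glands themselves differed across the 4 times in 3 of 9 members, against 13.4% of genes tested. Il1r1 averaged 64.5, 51.9, 56.8 and 49.5 CPM in controls at 60, 84, 108 and 132 h (adjusted p = 0.00981, edgeR). Il1rl1 averaged 15.7, 13.4, 14.9 and 8.93 CPM (adjusted p = 0.0429), and Il1b averaged 2.03, 0.784, 2.43 and 1.18 CPM (adjusted p = 0.0455). The counts of the 60 h and 108 h libraries came in a separate table from those of 84 h and 132 h. Table and time therefore cannot be told apart between those pairs of times. Runs of animal numbers were also unevenly spread over the control times, so run and time are partly mixed. Without the high-skin libraries 1 of the 3 was called, Il1r1 (adjusted p = 0.0469).

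Genes of the inflammasome and of cytokine processing were mostly higher in CLA glands. The list holds inflammasome sensors, adaptors and caspases, which activate interleukin-1 beta and interleukin-18, and also other proteases such as the calpains and the neutrophil enzymes Elane and Prtn3. Of 19 tested, 14 were higher and 2 lower at 108 h, against 24.9% of all genes higher and 23.0% lower, with a median log2 fold change of 0.75 against -0.01 over all genes tested. At 132 h, 13 were higher and 2 lower, against 27.0% of all genes higher and 29.0% lower, with a median of 0.73 against -0.03. Casp1, the protease that cuts both precursors, rose by 1.07 ± 0.13 at 108 h (adjusted p = 2.60e-06, edgeR) and 1.45 ± 0.13 at 132 h. The sensor Nlrp1b rose by 1.68 ± 0.19 and 2.16 ± 0.18, and the adaptor Pycard was 1.65 ± 0.17 higher at 132 h. Nlrp1a, a related sensor, was 1.5 ± 0.22 higher at 108 h. Elane, a neutrophil elastase, fell by 1.40 at 108 h and 2.33 at 132 h. Prtn3, its neighbour in neutrophil granules, fell by 1.06 at 132 h, and Txnip fell by 0.53 at 108 h. Of 8 neutrophil markers 4 had counts enough to be tested, with medians of 0.25 at 108 h and 0.46 at 132 h. Of these, 0 were called at either time, against 47.9% and 56.0% of all genes. Under estrogen 0 of the 19 inflammasome and processing genes were called at either time, with medians of -0.06 at 60 h and -0.12 at 84 h.

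Cytosolic signalling genes below the receptors changed less. Of 17 tested, 7 were higher and 2 lower at 108 h, and 6 were higher and 3 lower at 132 h, with medians of 0.09 and 0.06. The 9 called at each time were a share near that of all genes, 47.9% at 108 h and 56.0% at 132 h. The kinase Irak4, which starts the relay, was 0.41 ± 0.06 higher at 108 h and 0.47 ± 0.08 higher at 132 h. Irak3, a brake on the same pathway, was 0.26 ± 0.06 and 0.42 ± 0.09 higher, and the IkappaB kinase gene Ikbkb 0.25 ± 0.05 and 0.21 ± 0.06 higher. Tab3, an adaptor of the TAK1 kinase, fell by 0.20 at 108 h and 0.50 at 132 h. Map3k7, which encodes TAK1, fell by 0.11 and 0.18, and Traf6 fell by 0.14 at 132 h. In the RPKM table, by limma with a pseudocount of 0.1, Map3k7 was at -0.01 at 108 h and Traf6 at 0.02 at 132 h, and neither was called (adjusted p = 0.805 for Map3k7 and 0.829 for Traf6). Without the high-skin libraries 4 of the 17 were called at 132 h.

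Genes known to follow NF-kappaB or interleukin-1 rose with CLA in 5 of 16 tested at 108 h and 10 of 16 at 132 h, with 0 lower. The count at 108 h was near the 24.9% of all genes called higher, and the share over all genes at 132 h was 27.0%. The medians were 0.40 and 0.77. The neutrophil chemokine Cxcl1 was 2.04 ± 0.49 higher at 108 h (adjusted p = 0.00228, edgeR) and 2.96 ± 0.41 higher at 132 h, and the monocyte chemokine Ccl2 was 3.32 ± 0.49 higher at 132 h. The adhesion gene Vcam1 was 0.62 ± 0.12 and 1.0 ± 0.12 higher, and Icam1 was 0.43 ± 0.10 higher at 108 h. Without the high-skin libraries 6 of 16 were called at 132 h. Under estrogen Mmp3, a matrix protease, was 0.39 ± 0.11 lower at 60 h, and Ptgs2, the inducible cyclooxygenase, was 0.84 ± 0.24 lower at 84 h. Each was the single gene of the 16 called, with medians of -0.31 and -0.42, and 0 were called without the high-skin libraries at either time.

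**Figure D4:**
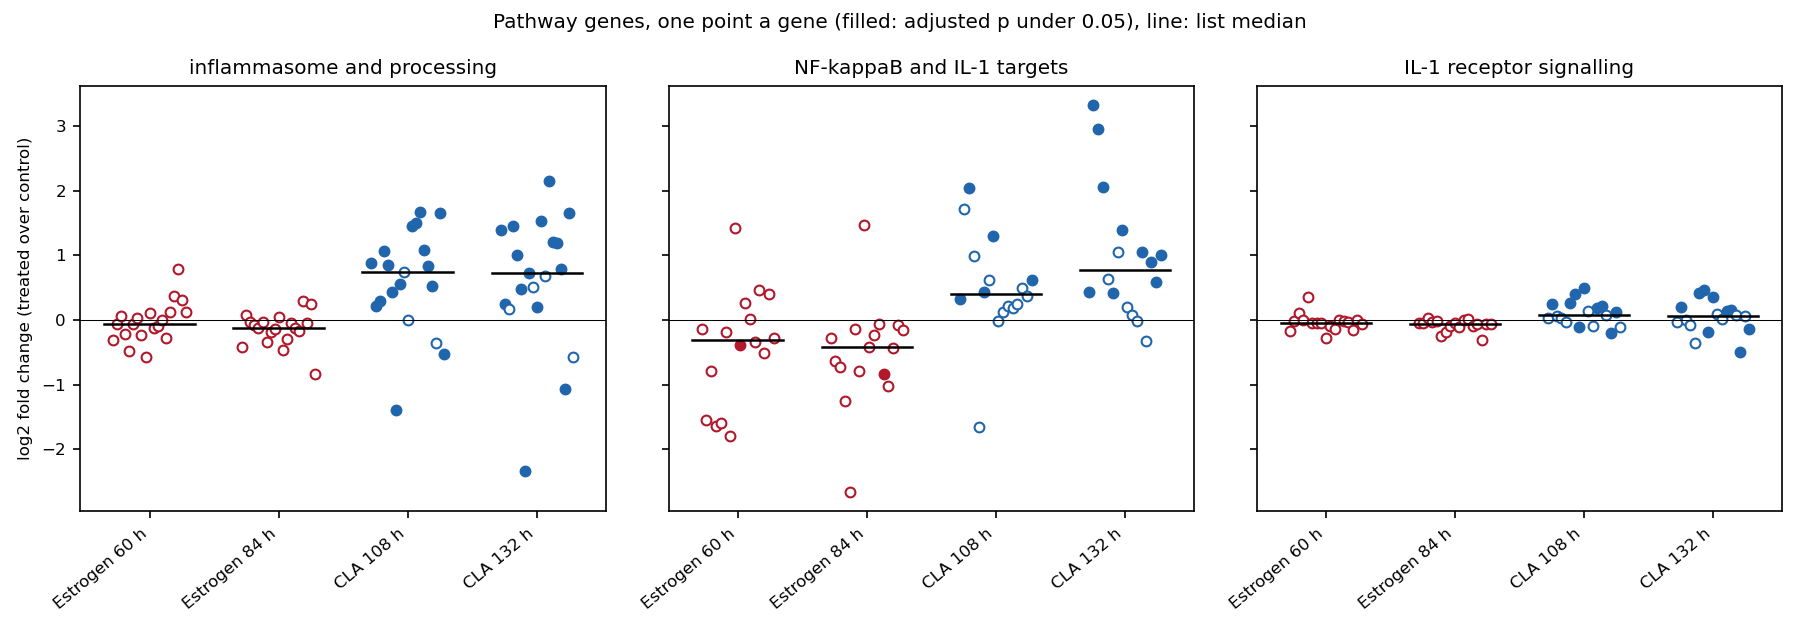
Log2 fold change, treated over control, of each tested gene (points; filled where adjusted p was under 0.05) in 3 pathway lists across the 4 comparisons, with the list median as a line. Medians of inflammasome and processing genes are 0.75 and 0.73 under CLA and -0.06 and -0.12 under estrogen.

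Among other receptors of the family, Sigirr, an inhibitory receptor, was called in 3 comparisons. It fell by 0.38 under CLA at 108 h (adjusted p = 0.00391, edgeR) and by 0.37 at 132 h, and was 0.32 ± 0.09 higher under estrogen at 84 h. The last call, and that at 132 h, were lost without the high-skin libraries (adjusted p = 0.305 and 0.0676). Il1rl2, the receptor of the interleukin-36 group, was 0.46 ± 0.12 higher under CLA at 132 h, and Il1rapl2, a brain receptor of the family, fell by 0.51 at 108 h. Il1f5, the interleukin-36 antagonist of skin, was at 0 in 25 of 40 libraries. At 132 h Il1f5 had 0 counts in all 5 CLA libraries and 0 to 141 counts in controls, and it was called lower (adjusted p = 0.00413). Il1f5 fell under the filter on low counts without the high-skin libraries and was not tested there, and of the 3 genes called at 132 h Il1rl2 alone was called (0.62, adjusted p = 0.00288). Of 7 tested, 0 were higher and 2 lower at 108 h, against 24.9% of all genes higher and 23.0% lower. At 132 h 1 was higher and 2 lower, against 27.0% of all genes higher and 29.0% lower. The interleukin-18 receptor chains Il18r1 and Il18rap were called at neither time.

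Neighbours on the chromosomes were mixed. Of 9 tested, 4 were higher under CLA at 108 h, and 4 higher and 1 lower at 132 h, shares near those of all genes called (47.9% and 56.0%). Along chromosome 1, Il1r1 and Il1rl1 were higher while Il18r1 and Il18rap, next in line, were not called. The sodium/proton exchanger Slc9a4 beyond them was 3.28 ± 0.28 and 3.79 ± 0.34 higher, and Slc9a2 beside it was 1.40 ± 0.33 lower at 132 h, or 0.74 lower and not called (adjusted p = 0.166) without the high-skin libraries. Psd4, beside Il1rn on chromosome 2, was 1.59 ± 0.28 and 1.96 ± 0.30 higher. Ckap2l, a mitotic spindle gene beside Il1a, was 1.81 ± 0.27 and 2.28 ± 0.21 higher under CLA, and 1.32 ± 0.28 higher at 60 h and 1.15 ± 0.20 higher at 84 h under estrogen.

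Macrophage markers were higher beside Il1rn. Of 10 tested, 9 were called higher under CLA at each time, against 24.9% of all genes at 108 h and 27.0% at 132 h. Their medians were 1.27 at 108 h and 1.73 at 132 h. Their summed level was 2514 to 3910 CPM in CLA glands at 108 h, against 867 to 1627 CPM in controls, and 2583 to 4997 CPM in CLA glands at 132 h, against 575 to 1070 CPM in controls. Under estrogen 0 of 10 were called at either time, against 6.49% of all genes at 60 h and 5.42% at 84 h. Neutrophil markers summed to at most 9.99 CPM in any library, and Ly6g was at 0 in 22 of 40 libraries. Mast cell markers, where Il1rl1 is known, summed to 133 to 156 CPM in CLA glands at 108 h and 163 to 250 CPM in controls. Of these 8 markers 2 were called lower and 0 higher, near the 23.0% of all genes called lower. In the alternatives 1 to 5 of the 8 were called at 108 h. At 132 h these markers summed to 131 to 168 CPM in CLA glands and 136 to 209 CPM in controls. There 1 of 8 was called lower, against 29.0% of all genes, and the median was -0.01. Markers of group 2 innate lymphoid and regulatory T cells summed to 7.62 to 9.46 CPM in CLA glands at 108 h and 10.6 to 14.2 CPM in controls. Of these 8 genes only 3 had counts enough to be tested, with 2 called lower. The mean log2 CPM over all 8 overlapped at 108 h, at -1.27 to -1.05 in CLA glands and -1.28 to -1.07 in controls. At 132 h the sums were 5.87 to 8.81 CPM in CLA glands and 9.48 to 17.5 CPM in controls. There 2 of 3 tested were called lower, against 29.0% of all genes. The mean log2 CPM overlapped at 132 h too, at -1.41 to -1.05 in CLA glands and -1.21 to -0.65 in controls. Foxp3 was at 0 in 24 of 40 libraries. Adipocyte markers were called lower under CLA in 5 of 6 at each time, at 10330 to 14084 summed CPM in CLA glands and 14893 to 19134 in controls at 108 h. Endothelial markers, from cells known for Il33, were lower in 6 of 6 at 108 h and 5 of 6 at 132 h. For adipocyte and endothelial markers alike, the shares of all genes called lower were 23.0% at 108 h and 29.0% at 132 h. Fibroblast markers, from stromal cells also known for Il33, were higher in 1 of 6 at 108 h, against 24.9% of all genes. At 132 h 4 of these 6 markers were higher (median 0.51), against 27.0% of all genes. The fibroblast markers summed at 132 h to 9416 to 11447 CPM in CLA glands and 6565 to 7180 CPM in controls, without overlap. Under estrogen, luminal epithelial markers were higher in 5 of 5 at 60 h and 3 of 5 at 84 h. The shares of all genes called higher were 4.07% and 3.45%. Luminal markers summed to 78.8 to 202 CPM in estrogen glands and 3.20 to 50.2 CPM in controls at 60 h. The part of these cells in the member values was not tested.

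**Figure D5:**
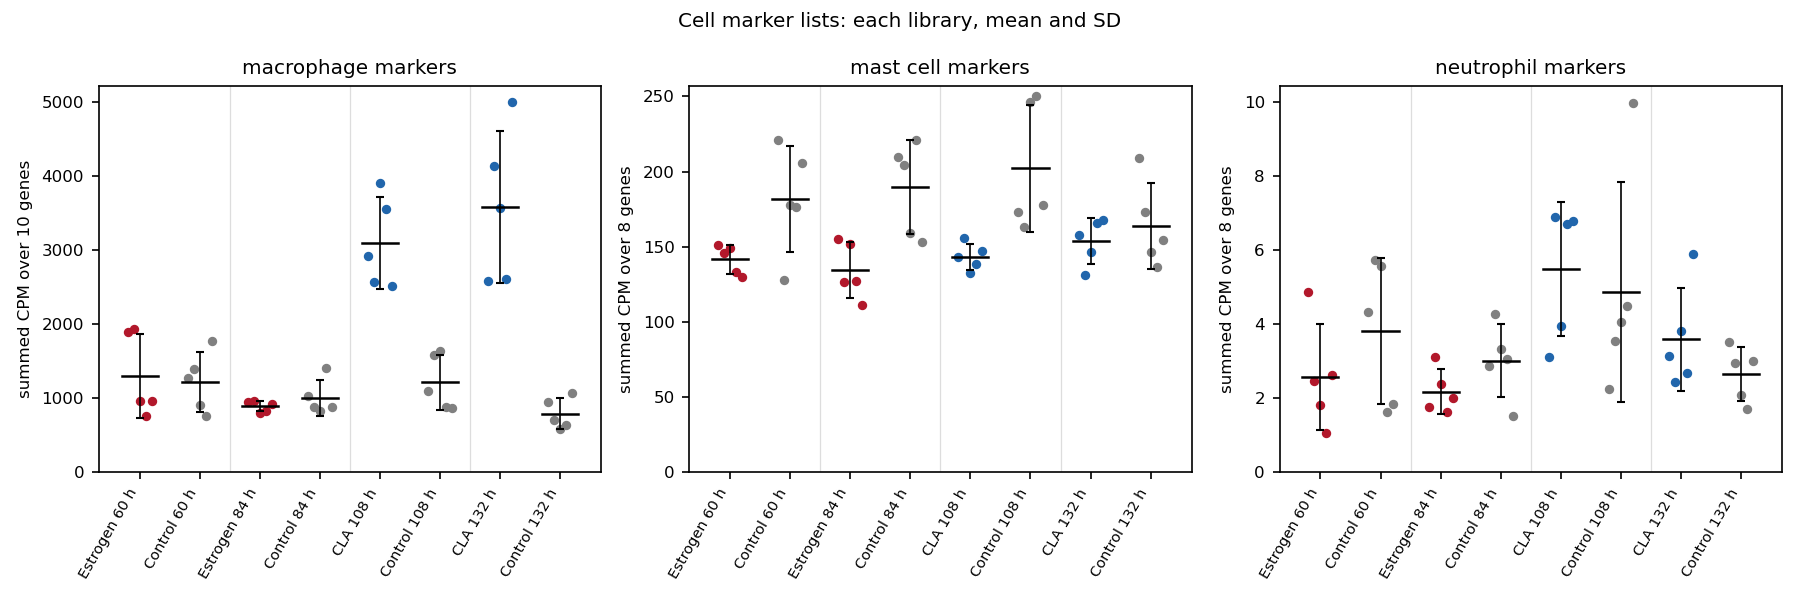
Summed CPM of marker lists for macrophages (10 genes), mast cells (8 genes) and neutrophils (8 genes) in each library, with the group mean and SD. Macrophage markers reach 2514 to 4997 CPM in CLA glands and 575 to 1627 CPM in their controls, while neutrophil markers stay under 10 CPM.

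Genes with the most similar course over the 8 group means were sought for 4 members, as the root mean square difference of centred mean log2 CPM over 12358 genes, or 12359 for Il1b. For Il1rn the nearest were Gpnmb (0.49), Itgax (0.67) and Trem2 (0.69). For Il1b they were Pyhin1 (0.36), Slfn4 (0.37) and Ifit1 (0.39). Il33 was closest to Ccl8 (0.16), Steap2 (0.16) and Ezr (0.17), and Il1r1 to Adam17 (0.05), Cacybp (0.06) and Msn (0.06). These genes were chosen with all libraries. Without the high-skin libraries the differences were 0.63 for Gpnmb, 0.36 for Pyhin1, 0.24 for Ccl8 and 0.12 for Adam17. Libraries, scaling and groups are shared by all these genes, and the values are a description over 8 points.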

How the data were processed

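Poly(A) libraries from 40 glands, 5 in each of 8 groups, were strand-specific per the labels' protocols. The authors deposited gene counts, unnormalized, and RPKM values (read counts scaled by gene length and library size by the authors) in tables split by time, 60 h with 108 h and 84 h with 132 h. The build was GRCm38 per the submitters' processing notes; which aligner, counter and annotation were used is not given in the sources used here. Fold changes from the deposited count and RPKM tables differed for some genes, so both were used.

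Counts were tested with edgeR 4.0.16 in R 4.3.3: TMM scaling, filterByExpr (minimum count 10, minimum total 15), robust quasi-likelihood F test, Benjamini-Hochberg adjustment over all genes tested and a threshold of 0.05. The 4 groups of a table shared 1 fit, and differences between times and the controls used all 40 libraries. SE was computed from the fold change and F. CPM were scaled by TMM over all 40 libraries, with a prior count of 2 on the log2 scale, and levels of different genes were compared by RPKM. The fit was also run on simulated counts with known changes. These were drawn without a skin signal or run effect, so they cannot test for those. Alternatives were DESeq2 1.42.0, limma 3.58.1 on log2 RPKM with pseudocounts of 0.1 and 1, other scalings and filters, leaving out libraries (high skin signal: mean log2 CPM above 1.5 over 14 genes) and runs of animal numbers. Depths of 18183713 to 40026800 counts limit Il1a and Il1b most.

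Members and lists were chosen with earlier results of these data known. The text names all members, and per list and treatment comparison the called genes with the 3 smallest p in each direction plus those needed for a level. For Il1rn, Il1b, Il33 and Il1r1 it names the 3 nearest genes over group means. Replicate numbers only name mice. The alternative that also leaves out control replicate 2 at 60 h was chosen after seeing the data.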

Additional observations from a re-analysis of the deposited data

Results flagged for a closer look

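Among 80 sets of 5 libraries (10 genes in 8 groups), 5 held a library whose gap to its nearest neighbour exceeded the critical share of the range, 0.710 for 5 samples. Chance alone gives about 1 in 20 sets. Il1rn had 8.91 CPM in control replicate 2 at 60 h, against 0.824 to 2.53 CPM in the other 4 controls. Il1r1 had 81.8 CPM in CLA replicate 5 at 108 h, below the 91.1 to 94.6 CPM of the other CLA glands and still above all controls. Il1r2 had 11.2 CPM in estrogen replicate 2 at 60 h, against 6.72 to 7.55 CPM in the other 4. Il1rap had 12.8 CPM in control replicate 1 at 132 h, a high-skin library, against 3.45 to 4.98 CPM. Il18bp had 8.22 CPM in control replicate 3 at 132 h, another high-skin library, against 5.99 to 6.37 CPM.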

How the results depend on the processing

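The calls for Il1rn, Il1r1 and, at 132 h, Il1rl1 and Il18 under CLA kept their direction and their side of the threshold in every alternative run, and 0 members were called between times of a regimen in each. The other calls moved as follows. Members called under estrogen at 60 h (1) came to 2 by DESeq2, 0 in all 3 fits of the RPKM table, 0 with only the 2 groups compared, 0 without the high-skin libraries and control replicate 2 at 60 h, and 0 to 2 when single libraries were left out. Those at 84 h (1) came to 2 by DESeq2, 0 in the 3 RPKM fits, 0 without the high-skin libraries, also with that control left out, 0 with only the 2 groups, and 0 to 1 without single libraries. Under CLA the count at 108 h (4) came to 3 with no filter on low counts and in the RPKM fits, 2 without the high-skin libraries and 2 to 4 without single libraries, the lowest without control replicate 1; that at 132 h (5) was 4 to 6. For CLA at 108 h minus estrogen at 60 h (5), it was 3 with no filter on low counts, 2 in the unfiltered RPKM fit, 2 without the high-skin libraries, 3 with that control out too, and 4 to 7 without single libraries. For CLA at 132 h minus estrogen at 84 h (4) it was 4 to 5. Across controls (3) it was 1 with no filter, 1 in the RPKM fits, 1 without the high-skin libraries, 0 with that control out too, and 1 to 3 without single libraries. The causes were not tested.

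Values that changed sign were uncalled in both fits, except Traf6 under CLA at 132 h, called at -0.14 and at 0.0191 or 0.0151 in the RPKM fits. RPKM fits gave 0.0568 or 0.0423 for Il18 under estrogen at 60 h, -0.136 or -0.00528 for Il1rn at 84 h (DESeq2 -0.00580), -0.00513 or -0.00142 for Il1rap and 0.0931 or 0.0787 for Il18 under CLA at 108 h, 0.0931 or 0.0750 for Il18bp at 132 h, and 0.00891 for Il1r2 in CLA at 132 h minus estrogen at 84 h. Without the high-skin libraries Il1rn under estrogen at 84 h was -1.31, Il18 there 0.0487, Il33 under CLA at 108 h -0.0868 (-0.0873 with control replicate 2 at 60 h also out) and the Il1r2 difference 0.181; Il1rl1 at 60 h was 0.0635 with that control also out. With animal run as a term Il18 under CLA at 108 h was 0.00380, and with upper-quartile scaling its difference between CLA at 108 h and estrogen at 60 h was -0.0239. Without single libraries Il18 spanned -0.199 to 0.00229 under estrogen at 60 h, -0.0620 to 0.0210 under CLA at 108 h and -0.0214 to 0.180 in that difference. Il1rn at 84 h spanned -0.281 to 0.260, and Il33 -0.000727 to 0.258 under CLA at 108 h and -0.140 to 0.219 in CLA at 132 h minus estrogen at 84 h. At 132 h Il1b spanned -0.0318 to 0.754, Il1rap -0.0849 to 0.560 and Il1r2 -0.0834 to 0.286, and the Il1r2 difference spanned -0.327 to 0.0415. No paired analysis was possible because the labels give animal numbers but no replicate number that groups share. Depth limits Il1a, with 0 to 12 counts, and Il1b, with 9 to 143.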
